A study of Mus musculus with 6 samples.

Results

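B cell development genes were examined in calvaria, the bones that roof the skull, from 13del-tg mice and their wild-type littermates. The members are 31 genes chosen by name from B cell biology, of 12859 genes that could be tested in all. Each was read from the probe set whose platform annotation names that gene alone and whose mean signal was highest. All 31 had such a probe set, and 27 passed a filter on dim probe sets (a mean signal of about 61.9 or more). The 4 below it were Rag2, Pou2f2, Fcer2a and Cr2.

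The parietal bones of mice 10 days old were embedded, cryosectioned and extracted as a whole, so the RNA came from bone, the marrow within it and tissue left attached. The control group is wild type, and the other group carries a Col10a1 transgene with the 13del mutation, a line described as having bone overgrowth. The promoter that drives the transgene is not given in the sources used here, and whether a sample was 1 animal is not stated. For each genotype 3 biological replicates are listed, with 1 Affymetrix array apiece, and the values are MAS5 intensities, called signals below. Control 1 and 13del-tg 1 hold one and the same column of values, equal at 45101 of 45101 probe sets, against 0.115% to 0.213% of probe sets for any other pair of arrays. That array, called the shared array, carries both labels and is shown apart, and the comparison is 13del-tg 2 and 3 against controls 2 and 3. With 2 arrays a group the number of arrays limits the precision of every value.

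Some features of the arrays bear on all the values. The transgene's gene, Col10a1, had signals of 149.8 and 158.2 in the controls, 15689 and 11584 in 13del-tg and 152.2 on the shared array. Osteoblast genes were strong on every array, with the bone sialoprotein gene Ibsp between 8649 and 13809. Xist, the transcript of the inactive X chromosome, was at 15206 on 13del-tg 3 and between 29.9 and 84.5 on the other arrays. The Y-linked gene Eif2s3y was at 11.1 on 13del-tg 3 and between 1652 and 1910 on the others. So 13del-tg 3 had a female pattern of expression and the other arrays a male one. Skeletal muscle genes were low on control 3, where their median lay 1.44 below the mean of the controls on the log2 scale, and 1.44 to 2.04 above it on the other arrays. Of 5 measured brain genes 3 were lower in 13del-tg and 2 higher, with a median difference of -0.043. Among them Snap25 had 462.1 and 733.0 in the controls, 18.5 and 33.4 in 13del-tg and 24.2 on the shared array. Its log2 difference was -3.86 (SE 0.38, limma adjusted p = 0.0402).

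B cells are made from marrow progenitors in ordered steps. A progenitor that receives interleukin 7 begins to recombine its immunoglobulin heavy chain gene with the RAG recombinase, then tests the new chain on its surface with a surrogate light chain in the pre-B cell receptor. Cells that pass divide, recombine a light chain gene and leave as B cells with a complete receptor, and genes of the mature cell come on late in this order. In young mice this takes place in the marrow of many bones, the skull among them.

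All 27 members above the filter had a negative difference, 13del-tg minus control, with a median of -1.20 on the log2(signal + 16) scale. The median over all genes tested was -0.074, and 58.8% of them were negative. For 21 of the 27 members each 13del-tg array was lower than each control, which held for 26.3% of all genes tested. By limma 20 of the 27 had an unadjusted p under 0.05 with a negative difference and 0 with a positive one, where the shares over all genes were 5.31% and 1.49%. No member passed an adjusted p of 0.05 over all genes (0 of 27, with adjusted p from 0.161 to 0.96), and 0.0467% of all genes passed it in the negative direction and 0.0156% in the positive one. In extracts of whole tissue, fewer B cells and less RNA per B cell cannot be told apart.

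The result depended on the arrays as follows. Without 13del-tg 2 the median of the members was -0.78 with 13 at an unadjusted p under 0.05, and without control 3, the array low in muscle genes, it was -1.04 with 14. Without 13del-tg 3, the array high in Xist, it was -1.50 with 19. The largest drop came with the shared array counted as 13del-tg, when 8 were left with a median of -0.88, and with it under both labels, when 7 were left with a median of -0.80. Counted as a control it left 20 and a median of -1.08, and its Col10a1 signal was at the level of the controls. With each array centred on its median, all genes at an unadjusted p under 0.05 went from 191 higher and 683 lower to 437 higher and 303 lower, and the median of all genes moved to 0.11. The members then still had 16 lower and 0 higher, with a median of -1.02.

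**Figure D1:**
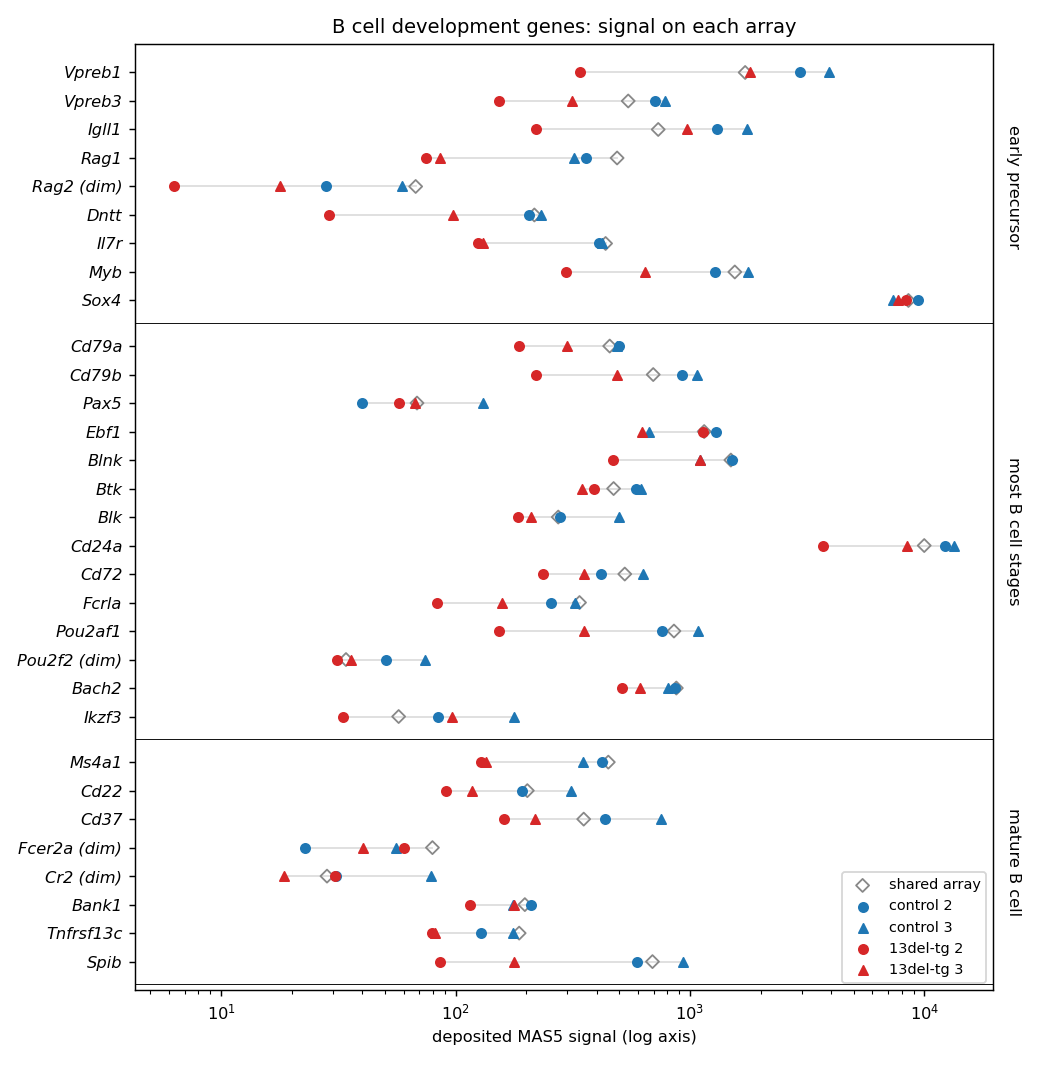
Deposited MAS5 signal (log axis) of the 31 members on each of the 5 distinct arrays, 1 row per gene, grouped by B cell stage. Blue points are controls 2 and 3, red points 13del-tg 2 and 3 and open diamonds the shared array, and for 21 of the 27 genes above the filter both red points lie left of both blue ones.

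The early precursor genes had the lowest median of the 3 stage groups at -1.70, with 8 of 9 members above the filter and 7 of these at an unadjusted p under 0.05. Vpreb1 and Igll1 encode the surrogate light chain, and Vpreb3 a relative of Vpreb1 that binds immunoglobulin chains inside precursor cells. The bases just before the start site of these 3 genes are shown because these are the members most restricted to B precursors. They are taken from RefSeq on build GRCm38.p6, with motif matches in capitals: CAGGTG, an E box, on either strand in the first and second, and ATTTGCAT, the octamer, in the third. Vpreb1 is at chr16:16869256-16869375 on the minus strand, Igll1 at chr16:16863986-16864105 on the minus strand and Vpreb3 at chr10:75948180-75948299 on the plus strand.
Vpreb1: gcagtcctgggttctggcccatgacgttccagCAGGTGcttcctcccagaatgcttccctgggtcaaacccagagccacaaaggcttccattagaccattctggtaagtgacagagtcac
Igll1: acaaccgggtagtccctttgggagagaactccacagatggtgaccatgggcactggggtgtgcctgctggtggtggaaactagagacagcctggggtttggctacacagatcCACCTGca
Vpreb3: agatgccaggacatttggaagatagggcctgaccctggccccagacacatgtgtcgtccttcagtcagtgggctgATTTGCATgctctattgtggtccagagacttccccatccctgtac

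The Vpreb1 signal was 2938 and 3914 in controls 2 and 3, 339.7 and 1811 in 13del-tg 2 and 3, and 1719 on the shared array. Both 13del-tg arrays were below both controls, but 13del-tg 2 was far lower than 13del-tg 3, and the shared array lay near 13del-tg 3. The log2 difference was -2.08 (SE 0.67, limma adjusted p = 0.677), and it was -0.90 without 13del-tg 2 and -3.26 without 13del-tg 3. Igll1 followed the same order, with 1302 and 1744 in the controls, 219.9 and 973.9 in 13del-tg and 731.9 on the shared array. Its difference was -1.66 (SE 0.60), with -0.62 without 13del-tg 2, and its probe set is of a kind that can also bind related transcripts. Vpreb3 had 709.5 and 780.3 in the controls, 152.7 and 312.6 in 13del-tg and 545.1 on the shared array, for a difference of -1.69 (SE 0.35, adjusted p = 0.359). Here the shared array lay between the groups, nearer to the controls.

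Rag1 encodes the catalytic chain of the recombinase that joins immunoglobulin gene segments. Its signals were 359.8 and 319.4 in the controls, 74.9 and 85.6 in 13del-tg and 488.7 on the shared array, so the 13del-tg arrays were alike, well below the rest. The mean was 340 ± 28.6 in the controls and 80.2 ± 7.57 in 13del-tg (SD, n = 2 each), and the difference was -1.89 (SE 0.30, limma adjusted p = 0.161), ranked 32 by p among all genes tested. Its partner Rag2 was dim, at 28.1 and 59.1 in the controls, 6.3 and 17.9 in 13del-tg and 67.6 on the shared array, with a mean below the filter. Dntt, the terminal transferase that adds bases at the joins, had 206.6 and 230.8 against 29.0 and 97.2, with 216.9 on the shared array, and its difference was -1.72 (SE 0.49). All 3 of its probe sets were negative, but the others had smaller differences of -0.84 and -0.81, and their mean gave -1.12. The 29.0 on 13del-tg 2 was under the level of the filter.

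Il7r, the interleukin 7 receptor chain, had closely matched arrays within each group. Its signals were 408.8 and 420.8 in the controls, 124.2 and 130.5 in 13del-tg and 436.5 on the shared array. The difference was -1.59 (SE 0.27, limma adjusted p = 0.191), and it stayed between -1.62 and -1.56 when any 1 array was left out. Myb, a transcription factor of blood progenitors of several lineages, had 1272 and 1773 in the controls, 295.9 and 645.4 in 13del-tg and 1553 on the shared array. Its difference was -1.74 (SE 0.38, limma adjusted p = 0.387), and it stayed between -2.28 and -1.20 when any 1 array was left out. Over all alternatives its limma adjusted p ran from 7.46e-11, with the replicate number as a block, to 1. The block fit had 1 residual degree of freedom and an infinite prior, so it treats the spread as known. Like that of Igll1, the Myb probe set can also bind related transcripts, and its others above the filter had -1.35 and -1.53. Sox4, a transcription factor also made outside the B lineage, was the exception among early genes on its brightest probe set. That probe set had signals from 7313 to 9374 on all arrays, with overlapping groups. Its difference was -0.05 (SE 0.19), which turned to 0.14 with arrays centred on the median. All 6 Sox4 probe sets above the filter were negative, down to -1.20, and their mean gave a difference of -0.47.

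**Figure D2:**
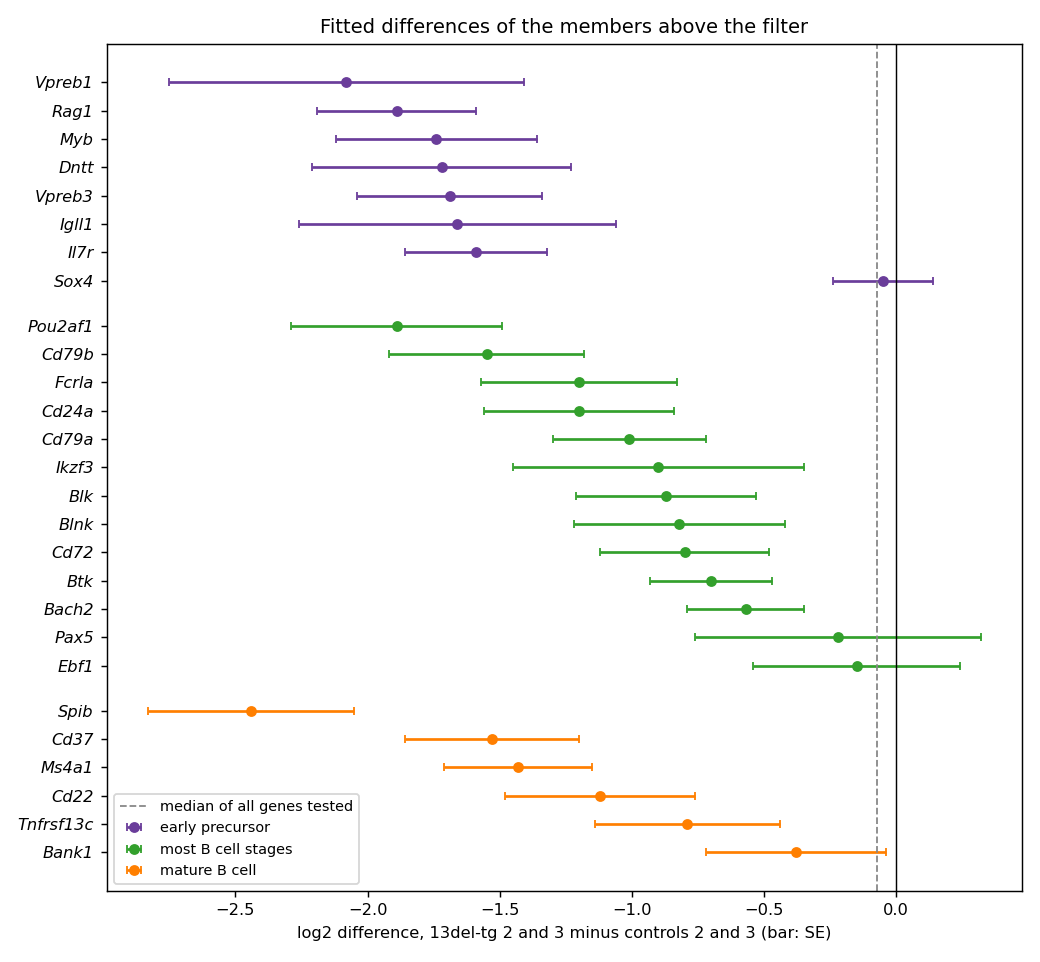
Log2 difference (13del-tg 2 and 3 minus controls 2 and 3) of each of the 27 members above the filter, with its limma standard error as a bar, ordered within the 3 stage groups. All points lie left of 0, from -2.44 for Spib to -0.05 for Sox4, and the dashed line marks the median of all genes tested, -0.074.

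Genes used through most of B cell development had a median difference of -0.87, with 13 of 14 above the filter and 9 at an unadjusted p under 0.05. Cd79a and Cd79b are the signalling subunits of the B cell receptor and of its precursor form. The Cd79a signal was 499.5 and 488.5 in the controls, 187.0 and 299.3 in 13del-tg and 454.5 on the shared array. The mean was 494 ± 7.78 in the controls and 243 ± 79.4 in 13del-tg (SD, n = 2 each), and the difference was -1.01 (SE 0.29, limma adjusted p = 0.628). Cd79b had 927.6 and 1068 in the controls, 221.2 and 488.9 in 13del-tg and 696.8 on the shared array, and its difference was -1.55 (SE 0.37). For both subunits 13del-tg 2 was the lowest array. The bases before the start of Cd79a, a classic B lineage promoter, are shown with AGGAAGT, an ETS motif, in capitals (RefSeq, GRCm38.p6, chr7:24897377-24897496, plus strand).
Cd79a: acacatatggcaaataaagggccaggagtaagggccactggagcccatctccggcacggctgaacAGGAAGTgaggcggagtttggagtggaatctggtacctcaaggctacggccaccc

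Among signalling proteins, Btk, the kinase downstream of the receptor, had 589.2 and 618.7 in the controls, 389.5 and 345.3 in 13del-tg and 472.2 on the shared array. Here 13del-tg 3 was the lower of the pair, and the difference was -0.70 (SE 0.23). Blk, a Src-family kinase of B cells, had a difference of -0.87 (SE 0.34), with 279.0 and 497.1 in the controls and 184.5 and 210.6 in 13del-tg. Blnk, the adaptor that links the receptor to Btk, had 1507 and 1100 in the controls and 471.6 and 1108 in 13del-tg. Its groups overlapped, since 13del-tg 3 lay just above control 3, and the difference was -0.82 (SE 0.40). The surface protein Cd72, an inhibitory co-receptor, had -0.80 (SE 0.32), and Fcrla, an Fc receptor-like protein inside B cells, had -1.20 (SE 0.37), with both 13del-tg arrays below both controls in each.

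Cd24a, a small surface protein of B precursors that red cell precursors also carry, had 12290 and 13422 in the controls, 3677 and 8453 in 13del-tg and 9977 on the shared array. The difference was -1.20 (SE 0.36), and all 3 of its probe sets were negative. The 8 genes of the erythroid list that were measured were all negative as well, with a median of -2.16, and the part of red cell precursors in the Cd24a difference was not tested.

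The transcription factors of the B lineage did not all share one pattern. Pou2af1, the B cell coactivator of octamer-binding factors, had 759.0 and 1084 in the controls, 152.9 and 351.8 in 13del-tg and 854.2 on the shared array. Its difference of -1.89 (SE 0.40, limma adjusted p = 0.385) was the largest in size among genes used through most stages. Bach2, a repressor of plasma cell genes, had a smaller difference of -0.57 (SE 0.22), with 866.8 and 809.4 against 512.1 and 611.5, and 874.3 on the shared array. Its other probe sets above the filter had -0.33 and -1.10. Ikzf3, the Ikaros-family factor Aiolos, had -0.90 (SE 0.55) with overlapping groups.

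Ebf1 and Pax5, which specify and commit the lineage, showed no separation of the groups. Ebf1 had 1294 and 671.0 in the controls, 1133 and 621.8 in 13del-tg and 1149 on the shared array, so each group held a high and a low array. Its difference was -0.15 (SE 0.39), between -0.61 and 0.32 over the fits that leave out 1 array, and 3 of its 4 probe sets above the filter were negative. Ebf1 is also made by stromal and fat cell precursors. Pax5 was near the filter, with 39.9 and 130.8 in the controls and 57.3 and 67.0 in 13del-tg, and its difference was -0.22 (SE 0.54), turning to 0.48 without control 3. The octamer-binding factor gene Pou2f2, below the filter, had signals from 31.3 to 74.4.

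The mature B cell genes had a median difference of -1.28, with 6 of 8 above the filter and 4 at an unadjusted p under 0.05. Spib, an ETS-family transcription factor of B cells and plasmacytoid dendritic cells, had the largest difference in size of all 27 members. Its signals were 594.5 and 930.3 in the controls, 85.5 and 177.1 in 13del-tg and 691.7 on the shared array, which lay between the controls. The mean was 762 ± 237 in the controls and 131 ± 64.8 in 13del-tg (SD, n = 2 each), and the difference was -2.44 (SE 0.39, limma adjusted p = 0.161), or 5.43 times lower on the log2(signal + 16) scale. Its rank by p was 31 among all genes tested. It passed with arrays centred on the median (adjusted p = 0.0373) and without control 2 (adjusted p = 0.00852). Counting the shared array as 13del-tg gave -1.66 (limma adjusted p = 0.71). Over all alternatives its limma adjusted p ran from 6.14e-14, with the replicate number as a block, to 1, and that block fit treats the spread as known. Its bases before the start site hold 2 overlapping matches to CCCNNGGG, a motif of EBF1, in capitals (RefSeq, GRCm38.p6, chr7:44532072-44532191, minus strand).
Spib: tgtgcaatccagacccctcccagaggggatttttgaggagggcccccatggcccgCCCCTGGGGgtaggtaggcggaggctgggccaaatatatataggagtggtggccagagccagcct

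Ms4a1, which encodes a calcium-regulating surface protein used as a marker of B cells after the precursor stages, had 420.2 and 348.4 in the controls, 127.8 and 135.3 in 13del-tg and 448.3 on the shared array. As with Rag1 and Il7r the 13del-tg arrays were close together, and the difference was -1.43 (SE 0.28, limma adjusted p = 0.325). Cd37, a tetraspanin of mature B cells and other leukocytes, had 433.8 and 749.2 against 161.7 and 217.2, a difference of -1.53 (SE 0.33), with 352.1 on the shared array, between the groups. Its other probe set above the filter had a smaller difference of -0.64, and their mean gave -1.09. On that probe set the shared array, at 284.5, lay above both controls (138.6 and 251.0). Cd22, an inhibitory receptor for sialic acid, had 191.9 and 310.1 against 91.2 and 117.1, a difference of -1.12 (SE 0.36).

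Genes of the later naive B cell were dim. Tnfrsf13c, the receptor for the survival factor BAFF, had 128.5 and 176.6 in the controls, 79.2 and 82.0 in 13del-tg and 186.8 on the shared array, a difference of -0.79 (SE 0.35). Bank1, a scaffold protein, had 210.4 and 175.2 against 115.6 and 177.2, so its groups overlapped, and its difference was -0.38 (SE 0.34). The complement receptor gene Cr2 had signals from 18.5 to 78.4, and Fcer2a, the low-affinity IgE receptor of follicular B cells, from 22.8 to 79.7, both below the filter. Fcer2a was the 1 member of 31 with a positive difference (0.32, SE 0.48, from the fit without a filter).

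**Figure D3:**
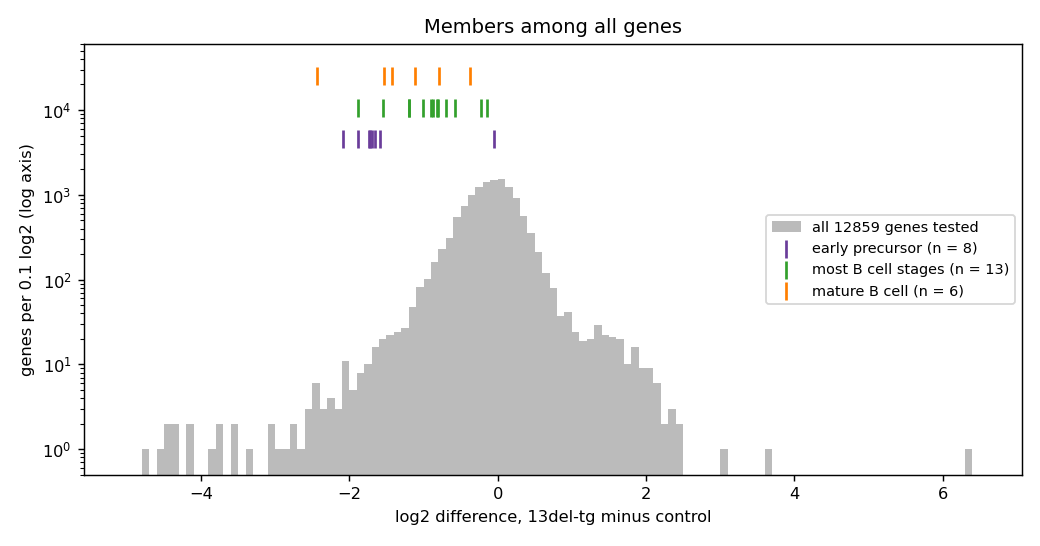
Log2 differences of all 12859 genes tested (grey bars, genes per 0.1 log2, log axis), with the 27 members above the filter as coloured ticks in 1 row per stage group. Sox4 (-0.05), Ebf1 (-0.15) and Pax5 (-0.22) lie within the bulk of the genes, and 16 members lie below -1, where 2.43% of all genes lie.

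The contrast between early precursor and mature genes was taken as the mean log2 deviation of the 8 early genes from the controls minus that of the 6 mature genes. The mean difference was -1.55 for early and -1.28 for mature genes, a contrast of -0.27 against an SD between arrays of a group of 0.32. By array it was -0.57 on 13del-tg 2, 0.04 on 13del-tg 3, 0.09 and -0.09 on controls 2 and 3 and -0.14 on the shared array. Among the 4 arrays compared, 13del-tg 2 alone had early genes further down than mature ones by more than the controls differed. The contrast was 0.035 without 13del-tg 2 and 0.27 with a stricter filter that left out the dimmer genes, so its direction was not stable. Without Myb, Sox4 and Il7r, which other cells also express, it was -0.52. Of these Sox4 at -0.05 lay far from the early mean, and Myb at -1.74 and Il7r at -1.59 lay near it. The mature list was not trimmed in the same way, although Spib and Cd37 are also made by other cells.

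The 13del-tg arrays differed from each other in a regular way. For 24 of 27 members 13del-tg 2 was lower than 13del-tg 3, and the median deviation from the mean of the controls was -1.50 on 13del-tg 2 and -0.78 on 13del-tg 3. The gap was wide for Vpreb1 (-3.26 and -0.90), Igll1 (-2.69 and -0.62) and Cd24a (-1.80 and -0.60), and small for Rag1 (-1.97 and -1.81), Il7r (-1.62 and -1.56) and Ms4a1 (-1.47 and -1.40). Both 13del-tg arrays also differed in Xist and Eif2s3y, and the part of sex in this gap was not tested. The shared array had a median deviation of -0.09, between those of controls 2 and 3 (-0.10 and 0.10). It lay above both 13del-tg arrays for 24 of 27 members and above both controls for 6, and its genotype was not inferred from these B cell values. Its Col10a1 signal, 152.2, lay between those of controls 2 and 3 (149.8 and 158.2) and far below both 13del-tg arrays (15689 and 11584).

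Of the 13 measured genes that carry signals from the B cell receptor, 9 were negative and 4 positive, up to 0.31, with a median of -0.54. Over all genes tested 58.8% were negative, and 5.31% were so at an unadjusted limma p under 0.05. In this list 4 genes reached that p, all of them lower. These were Pik3ap1, an adaptor for phosphoinositide 3-kinase, at -1.04 (SE 0.26), the phosphatase gene Ptpn6 at -0.83 (SE 0.22), Prkcb at -0.69 (SE 0.29) and Dok3 at -0.59 (SE 0.23). Of 16 transcription factors of early lymphoid cells 12 were negative and 4 positive, up to 0.37, with a median of -0.33. The 4 of smallest p in this list were all negative. Ikzf1, the gene of Ikaros, had -1.20 (SE 0.32), Irf4 -1.41 (SE 0.50), Bcl11a -1.11 (SE 0.35) and Irf8 -0.83 (SE 0.29). No gene of either list passed an adjusted p of 0.05 over all genes by limma. In these lists 0 genes had a positive difference with an unadjusted p under 0.05, where the share over all genes was only 1.49%.

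Of 6 measured genes of the end joining machinery, which seals the breaks that RAG makes but is used in all cells, 3 were negative and the median was 0.035. The ligase gene Lig4, of smallest p in this list, had -0.89 (SE 0.35), with 192.5 and 137.3 in the controls and 76.0 and 85.3 in 13del-tg. Next by p were Xrcc4 at 0.48 (SE 0.33), Prkdc at -0.17 (SE 0.25) and Nhej1 at 0.25 (SE 0.38), so the list had no common direction. The 3 measured immunoglobulin and J chain genes were all negative, with a median of -1.23. Igha, the heavy chain of immunoglobulin A, had 90.5 and 163.3 in the controls, 12.3 and 42.7 in 13del-tg and 208.5 on the shared array. Both 13del-tg arrays were below both controls and under the level of the filter, and the difference was -1.76 (SE 0.54, limma adjusted p = 0.645). Ighm, the heavy chain of immunoglobulin M, had 1819 and 3504 in the controls, 546.3 and 2072 in 13del-tg and 1326 on the shared array. Its groups overlapped, since 13del-tg 3 was above control 2, and its difference was -1.23 (SE 0.59). In the plasma cell list 5 of 6 measured genes were negative, with a median of -0.49. Of these Mzb1, a chaperone of immunoglobulin assembly, had -1.29 (SE 0.37), whereas Jchain had -0.12 (SE 0.39).

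The factors that marrow stroma supplies to B precursors had 5 of 8 negative and 3 positive, with a median of -0.30. That share is close to the 58.8% of all genes tested that were negative. Il7, the ligand of Il7r, was dim, with 109.0 and 93.9 in the controls, 46.7 and 40.3 in 13del-tg and 77.5 on the shared array. Both 13del-tg arrays were under the level of the filter, so Il7 passed it through the other arrays. They were also below both controls, an order that held for 26.3% of all genes tested. The shared array lay between the groups, and the difference was -0.98 (SE 0.40, limma adjusted p = 0.715). Cxcl12, the chemokine that holds precursors in the marrow, had -0.41 (SE 0.21), and Igf1 -0.46 (SE 0.19).

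Other marrow lineages were set beside the B cell genes, array by array. Neutrophil genes had a median deviation of -1.57 on 13del-tg 2 and 0.13 on 13del-tg 3, with -0.39 and 0.39 on the controls, so 13del-tg 3 lay within the controls for neutrophil genes and below them for B cell genes, a difference that was not tested. Their summed signal was 19071 on 13del-tg 2, 59543 on 13del-tg 3 and 44403 and 63990 on the controls. Erythroid genes were low on both, at -2.89 and -1.37, and macrophage genes were close to the controls, at -0.09 and 0.03. Cell cycle genes, which dividing precursors share with other dividing cells, had -1.07 and -0.42, with all 12 measured genes negative and 7 at an unadjusted p under 0.05. Of the T cell list 4 of 10 genes with a probe set were above the filter, with 0 at an unadjusted p under 0.05 and summed signals from 456 to 661 on the arrays. The defining T cell gene Cd3e was below the filter. Osteoblast genes were at 0.07 and 0.17. The parts of red cell precursors, of dividing cells and of the lower muscle signal of control 3 in the B cell differences were not tested, other than by leaving out single arrays. Nor was any part of the tissue behind the higher Snap25 signal of the controls.

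**Figure D4:**
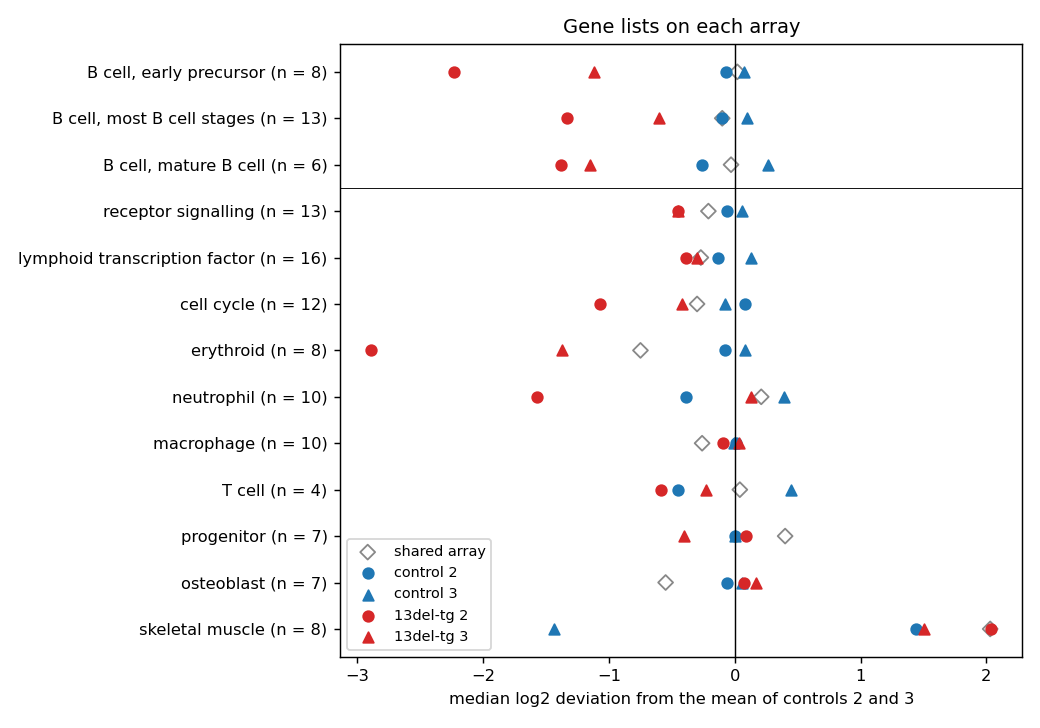
Median log2 deviation of each gene list from the mean of controls 2 and 3, by array, with the number of genes above the filter beside each name. The 3 B cell groups and the erythroid, cell cycle, receptor signalling and lymphoid transcription factor lists have both 13del-tg arrays left of both controls, neutrophil genes have 13del-tg 2 alone at -1.57, and skeletal muscle genes have control 3 alone at -1.44.

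Motifs of B lineage factors were counted in the 250 bases before the start sites of 26 members with a promoter in the table, on both strands. The members with none are Cd79b, Blk, Cd24a, Ikzf3 and Ms4a1. CAGGTG was found in 12 of 26, against 19.4% of 27025 genes, and among the stage groups in 3 of 9 early, 3 of 10 common and 6 of 7 mature genes. AGGAAGT was found in 7 of 26, against 8.8%, and CCCNNGGG in 4 of 26 (Igll1, Bank1, Cd22 and Spib), against 13.4%. ATTTGCAT was found in Vpreb3 and Blnk, 2 of 26, against 1.81%. Such matches are letters in a window and were not set against binding data.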

How the data were processed

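The deposited values are MAS5 intensities on a linear scale, per the submitters' processing notes (no version is given), 1 per probe set and array. The authors had scaled them to one level, since the mean trimmed by 2% was 500 on every array. MAS5 gives noisy low signals, so log2(signal + 16) was used, with no further normalization, and 27022 probe sets were kept whose mean over the 5 distinct arrays reached the 40th percentile (6.28, or a signal of 61.9), the 64 control probe sets being left out. Before this filter 34945 had 1 gene symbol in the platform annotation (34741 matched RefSeq by gene number), 932 several and 9160 none. The brightest kept probe set stood for each of 12859 genes. Members below the filter have values from a fit without it.

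Differences, 13del-tg 2 and 3 minus controls 2 and 3, came from limma 3.58.1 under R 4.3.3 (linear fit, moderated with a mean-variance trend). Its two-sided p-values rest on 2 residual degrees of freedom per gene and 5.01 prior ones borrowed from all genes. They were adjusted by Benjamini-Hochberg across the whole table, and 0.05 was the threshold. An exact permutation test of 2 arrays against 2 cannot go below p = 0.333. Folds on this scale understate changes of dim genes. The code was tested on simulated data. The members, stage groups and other lists were chosen with earlier results of these data known, so no test over a list was made. Named are all 31 members, up to 4 genes of smallest p from each other list described, and Col10a1 and Xist. Cd3e and Eif2s3y are named too and were chosen after their values were seen. The p-values rest on the spread between these samples, drawn for each gene towards the spread of all genes.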

Additional observations from a re-analysis of the deposited data

Results flagged for a closer look

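The shared array, which the comparison leaves out, had signals above both controls for 6 members above the filter. These were Rag1 at 488.7 (controls 359.8 and 319.4), Il7r at 436.5 (408.8 and 420.8), Fcrla at 337.9 (254.4 and 323.2), Bach2 at 874.3 (866.8 and 809.4), Ms4a1 at 448.3 (420.2 and 348.4) and Tnfrsf13c at 186.8 (128.5 and 176.6). Groups of 2 arrays were too small for a check of single outlying arrays.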

How the results depend on the processing

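Over 18 alternatives, 24 of 27 members kept a negative difference in each where they passed the filter. Of 480 differences of single members under an alternative, 10 changed sign: Sox4 with arrays centred on the median (0.14), without control 2 (0.13), without 13del-tg 3 (0.016) and with Xist as a covariate (0.023); Ebf1 in the same settings (0.036, 0.32, 0.28 and 0.28) and with the shared array counted as 13del-tg (0.00017); and Pax5 without control 3 (0.48). Leaving out 1 array gave -0.23 to 0.13 for Sox4, -0.61 to 0.32 for Ebf1 and -0.91 to 0.48 for Pax5. Members lower at an unadjusted p under 0.05, 20 in the comparison reported, were 8 when the shared array counted as 13del-tg, 7 with it under both labels (median -0.80) and 13 to 19 when 1 array was left out, with 0 higher in every setting. Medians ran from -1.50 to -0.78 when 1 array was left out. The contrast of early and mature genes ran from -0.57 to 0.035 when 1 array was left out and was 0.27 with a 60th percentile filter. The count past the threshold over all genes, 8, was 2 with a pseudocount of 1, with a 60th percentile filter and with quantile normalization, 3 with a pseudocount of 64, 1 with no filter, without the trend, with the shared array as control only and with Xist as a covariate, 30 with centred arrays, 25 with robust eBayes, 0 with the shared array under both labels (17 higher and 175 lower at an unadjusted limma p under 0.05), and 1 to 232 when 1 array was left out (232 without control 2). With the replicate number as a block it was 609, with 16 members lower among them. That fit had 1 residual degree of freedom and an infinite prior, so it treats the spread as known. Same-numbered arrays had correlated deviations (r = 0.273 over 12859 genes), but there are only 2 such pairs and the labels tie no number to a litter, so the numbers were not taken as pairs. Without control 2, 4 members passed (Myb, Pou2af1, Cd37 and Spib), with centred arrays 1 (Spib), and in the other alternatives without a block 0. The cause of each change was not tested. Fits without 1 array assume that the lone array varies like the other group.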
